A study of Mus musculus with 8 samples.

Results

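The matrix metalloproteinase (MMP), ADAMTS, ADAMTS-like and TIMP genes were described in RNA-seq libraries of mouse stromal cells. They were taken by name, as each gene of the deposited fragment table whose symbol is Mmp, Adamts or Adamtsl with a number, or Timp1 to Timp4. This gave 51 of 22558 genes, of which 23 were MMPs, 19 ADAMTS proteases, 5 ADAMTS-like genes and 4 TIMPs. The files identify genes by symbol.

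MMPs are zinc endopeptidases that cut collagens, gelatins, proteoglycans and other matrix and cell surface proteins, and most are made as inactive precursors. ADAMTS proteases are secreted zinc proteases with thrombospondin repeats that cut proteoglycans such as aggrecan and versican or trim procollagens, and the ADAMTS-like proteins keep the repeats without the protease domain. TIMPs are small secreted proteins that block the active site of these enzymes, and fibroblasts of connective tissue express many of these genes.

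The 8 libraries formed 4 groups with 2 replicates each. Cells of 3 groups carried surface fibroblast activation protein (FAP), a serine protease of stromal cells, and had been isolated by flow cytometry from dissociated visceral adipose tissue, from skeletal muscle or from pancreas. The labels name the pancreas group stellate cells, the mesenchymal cells of that organ that can store vitamin A. The remaining group held mouse embryonic fibroblasts (MEFs) that lacked FAP, were cultured over 3 passages and were then sorted again. The labels give no strain, age, sex or treatment for any group, and a difference from MEFs is also one between freshly isolated and cultured cells, which cannot be told apart here. The cells were isolated in duplicate experiments, so errors describe the spread between 2 experiments.

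Estimated fragments totalled 15516319 to 27759399 per library. Levels are given as CPM, estimated fragments scaled to a common library total with TMM factors, and different genes are set side by side only as FPKM, which divides by length as well. Fap stood at 28.0 to 107 CPM in FAP+ cells, against 2.37 and 0.516 CPM in MEFs. In the pancreas libraries Gfap and Lrat, defining genes of stellate cells, reached at most 0.468 CPM, while Des, the stellate cell filament desmin, stood at 41.6 and 34.6 CPM. The summed level of 6 endothelial markers was 261 and 310 CPM in adipose, 97.0 and 149 CPM in muscle and 64.5 and 75.5 CPM in pancreas FAP+ cells, against 3.48 and 2.82 CPM in MEFs. In pancreas 7 acinar cell markers, genes of digestive enzymes, summed to 151 and 68.6 CPM, against 1.59 and 1.73 CPM in MEFs and at most 3.81 CPM in adipose and muscle, and 6 of the 6 tested were higher in pancreas than in MEFs. The part of these cells in the results below was not tested. Adipose library 1 stood apart, with a TMM factor of 0.516 against 0.889 to 1.31 in the others. The deposited bias adjustment also weighed genes differently in it: Adamts5 had 0.149 estimated fragments per whole read recovered from the RPKM table there and 0.494 to 0.709 elsewhere, and Adamts10 had 6.57 there and 3.45 to 4.27 elsewhere. Among members with more than 19 fragments in both libraries of a group, the median difference between those libraries was 0.66 on the log2 scale in adipose, 0.25 in muscle, 0.24 in pancreas and 0.42 in MEFs. In recovered reads these values were 0.39, 0.28, 0.28 and 0.47. They rest on read CPM, which is scaled to the read total of each library without TMM factors. Values in CPM and read CPM therefore differ in scaling as well as in counts, and these parts were not told apart. The fit of recovered reads did use TMM factors.

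A filter on low counts kept 41 members for testing: 15 MMPs, 17 ADAMTS proteases, all 5 ADAMTS-like genes and all 4 TIMPs. Tests were made with edgeR's quasi-likelihood fit over 14847 genes, and calls needed an adjusted p (Benjamini-Hochberg) under 0.05. Against MEFs, 26 members were higher and 4 lower in adipose FAP+ cells (73.2% called), where 50.1% of all tested genes were called, 26.9% higher and 23.2% lower. In muscle FAP+ cells 26 were higher and 4 lower (73.2%), where 43.8% of all tested genes were called, 23.7% higher and 20.0% lower. In pancreas FAP+ cells 29 were higher and 5 lower (82.9%), where 42.5% of all tested genes were called, 23.1% higher and 19.4% lower. The median member differed from MEFs by a log2 fold change of 2.37 in adipose, 2.05 in muscle and 2.32 in pancreas, beside 0.05, 0.03 and 0.02 over all tested genes. These 3 comparisons share the MEF libraries. A member with fragments in only 1 group passes the filter through that group, so neither count covers all 51.

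Against MEFs 23 members were higher in all 3 tissues: 6 MMPs (Mmp2, Mmp14, Mmp19, Mmp21, Mmp23 and Mmp27), 11 ADAMTS proteases (Adamts1, 2, 4, 5, 8, 10, 12, 14, 15, 16 and 19), 4 ADAMTS-like genes (Adamtsl1, 2, 4 and 5), Timp2 and Timp4. Mmp13 and Mmp16 were lower in all 3, and 0 members were called in opposite directions. Over all tested genes 16.5% were higher in all 3 tissues, 13.5% lower in all 3 and 0.707% called in opposite directions, and since the comparisons share their MEF libraries, calls in the same direction are no independent support for each other. Another 11 were called in 1 or 2 tissues, and Mmp11, Mmp24, Adamts3, Adamts6 and Adamts9 were called in none, as were 37.5% of all tested genes. These 5 were called under some alternatives, among them Adamts3 and Adamts9 higher in adipose in recovered reads (log2 fold change 1.21 and 1.39, edgeR adjusted p = 0.025 and 0.00891), and Mmp11 lower in muscle in each limma setting and in the fit of the 2 groups alone (-0.68 in the last, edgeR adjusted p = 0.0345). The limma settings took FPKM or RPKM without TMM factors. In bulk RNA, fewer cells that express a gene and less of its RNA per cell cannot be told apart.

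**Figure D1:**
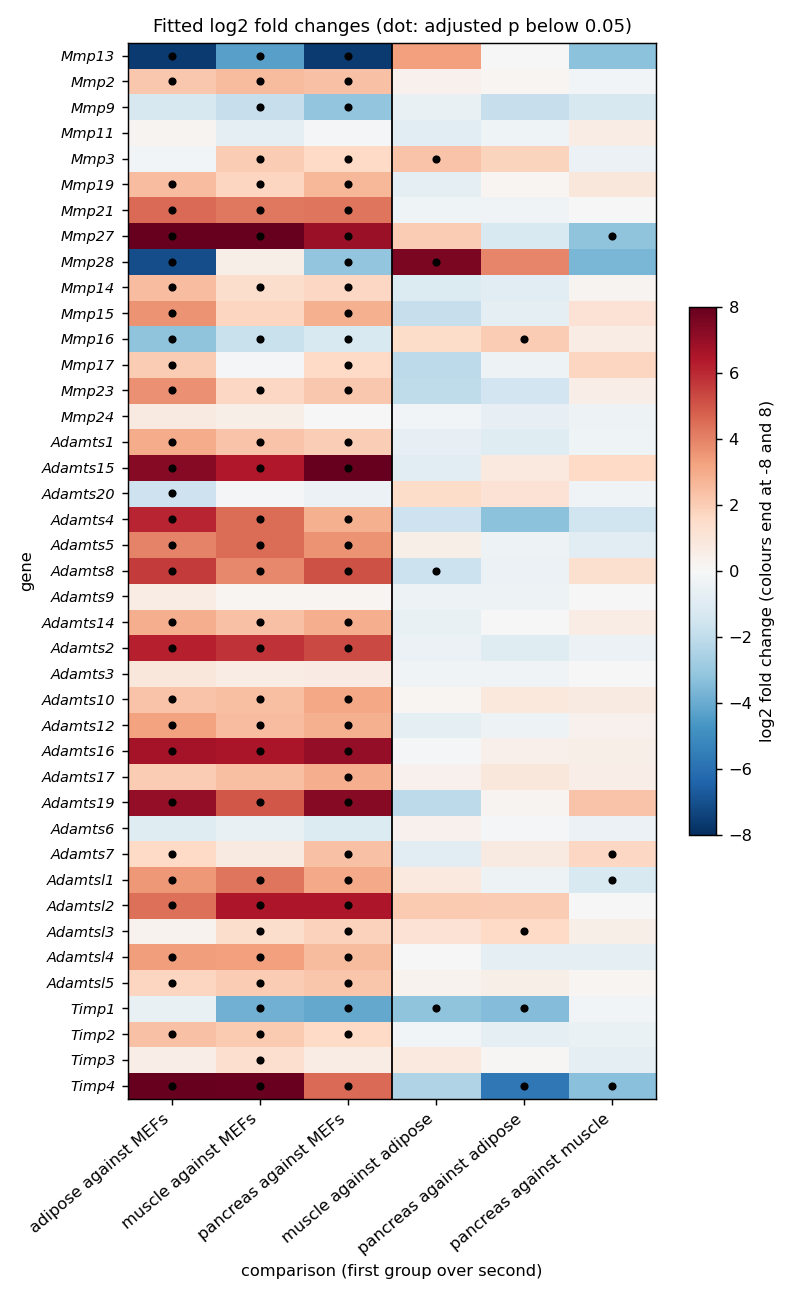
Fitted log2 fold change of the 41 tested members (rows) in the 6 comparisons (columns; first group over second). Red is higher and blue lower in the first group, black dots mark an adjusted p below 0.05, and the 3 columns on the left, against MEFs, hold 30, 30 and 34 dots, while each of the 3 tissue comparisons holds 4. Where a group has 0 to 3 fragments (Mmp13, Mmp21, Mmp27, Mmp28, Adamts19 and Timp4) the colour depends on the fit's prior count.

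Levels per length put the same few genes on top in every tissue. Timp2 had the highest FPKM of the 51 members in all 6 FAP+ libraries, at 548 and 1230 FPKM in adipose, 1040 and 911 in muscle and 650 and 866 in pancreas. Mmp2 was second in 5 of these libraries, and in adipose library 1 Mmp23 stood between them. In both MEF libraries Timp1 was first, at 550 and 707 FPKM, and Timp2 second, at 310 and 386 FPKM. Summed over the 51 members, the level was 1880 and 2980 FPKM in adipose, 2540 and 2400 in muscle and 2030 and 2460 in pancreas FAP+ cells, against 1340 and 1540 FPKM in MEFs. FPKM carries no TMM factor. In CPM, which has that factor but no division by length, the sum was 9670 and 9680 in adipose, 8350 and 7750 in muscle and 6140 and 6790 in pancreas, against 2060 and 2450 in MEFs. Most of the FPKM sum came from the gelatinases, the membrane-bound MMPs, the proteoglycanases, the procollagen proteases and the TIMPs.

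The collagenases cut fibrillar collagen across its triple helix, and Mmp13 is the main one of the mouse. Mmp13 had 0 and 0.0406 CPM in adipose, 0.574 and 0.0858 CPM in muscle and 0.0521 and 0 CPM in pancreas FAP+ cells, against 8.70 and 4.22 CPM in MEFs. All 6 FAP+ libraries lay below both MEF libraries. With 1 fragment in adipose the level in MEFs was 244 times that in adipose (95% counting interval 43.6 to 9680), and with 1 fragment in pancreas it was 249 times that in pancreas (44.4 to 9850). In muscle the fitted log2 fold change from MEFs was -4.37 ± 0.88 (SE, edgeR adjusted p = 0.00572). Beside this, the summed level of 5 cartilage cell markers was 10.5 to 30.8 CPM in FAP+ libraries, against 1360 and 902 CPM in MEFs, most of it Col2a1 at 1300 and 821 CPM; its part in the Mmp13 difference was not tested. The other collagenases, Mmp1a, Mmp1b and Mmp8, had under 3 fragments in every library.

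Mmp13 and Mmp3 belong to a row of 10 MMP genes on chromosome 9. In the RefSeq order these are Mmp7, Mmp20, Mmp27, Mmp8, Mmp10, Mmp1a, Mmp3, Mmp1b, Mmp12 and Mmp13. AP-1, the Fos and Jun transcription factor, binds a palindrome that is a known element of collagenase and stromelysin promoters, so the proximal promoters of 3 expressed genes of the row and of Mmp10 are shown. Each is the 100 bases before the gene start, 5′ to 3′ on the gene's strand (plus for all 4), from the RefSeq promoter table on GRCm38.p6. The capitals mark a match to TGANTCA, which reads the same on both strands.
Mmp3, chr9:7445722-7445821: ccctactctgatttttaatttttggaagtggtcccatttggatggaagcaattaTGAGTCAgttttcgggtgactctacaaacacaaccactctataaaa
Mmp10, chr9:7502242-7502341: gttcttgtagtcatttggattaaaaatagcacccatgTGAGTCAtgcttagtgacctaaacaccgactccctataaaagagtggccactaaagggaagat
Mmp13, chr9:7272414-7272513: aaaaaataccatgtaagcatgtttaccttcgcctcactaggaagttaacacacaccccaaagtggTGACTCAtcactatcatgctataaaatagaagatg
Mmp27, chr9:7571296-7571395: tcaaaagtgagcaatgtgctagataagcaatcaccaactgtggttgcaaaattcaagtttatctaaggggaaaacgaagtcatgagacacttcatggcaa

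RefSeq promoters, from 250 bases before to 50 after a start, matched 36 of the 51 members, with 39 windows because some genes have more than 1 start. The motif stood in 8 of the 12 windows of the chromosome 9 row and in 0 of the 27 windows of other members, while 7.81% of all 32851 promoters held it. In the window at the outermost start it began 63 bases upstream in Mmp7 and Mmp10, 95 in Mmp20, 73 in Mmp1a, 46 in Mmp3, 93 in Mmp1b and 35 in Mmp13. In Mmp12 it stood 44 bases upstream of another start of the gene, and the central base was A in Mmp20. These letters were not in the windows of Mmp27 and Mmp8. Genes of the row that hold the motif did not share a pattern of levels: Mmp3 and Mmp13 are given here with their values, and Mmp1a, Mmp1b, Mmp7, Mmp10, Mmp12 and Mmp20 stayed at 8 fragments or fewer in every library.

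**Figure D2:**
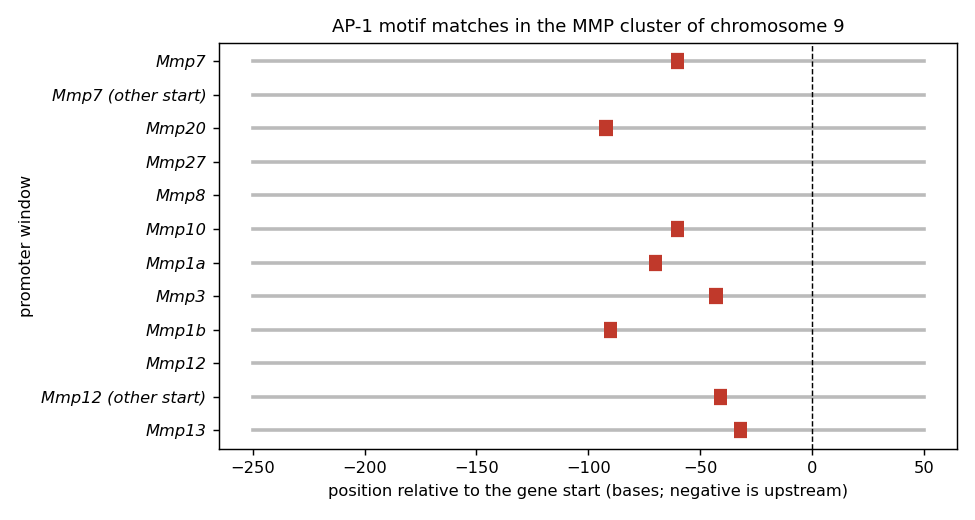
Matches to the AP-1 palindrome (red blocks) in the 12 promoter windows (grey lines) of the MMP row on chromosome 9, by position in bases relative to the gene start at 0. In the 8 windows that hold a match it lies within 95 bases upstream of the start.

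The stromelysins cut proteoglycans, laminin and fibronectin and can activate other MMPs. Mmp3, stromelysin-1, stood at 10.9 and 8.15 CPM in adipose, 65.8 and 25.1 CPM in muscle and 29.4 and 37.4 CPM in pancreas FAP+ cells, against 7.98 and 14.0 CPM in MEFs. The muscle and pancreas libraries lay above all adipose and MEF libraries, and the adipose range overlapped that of MEFs. Mmp3 was called higher than in MEFs in muscle (log2 fold change 2.05) and pancreas (1.61), but the muscle call was lost without muscle library 1 or MEF library 1 (edgeR adjusted p = 0.094 and 0.102), and the pancreas call without either pancreas or either MEF library (0.0586 to 0.193). Mmp11, a stromelysin activated by furin inside the cell, had 9.69 to 26.1 CPM in FAP+ libraries, against 20.5 and 18.4 CPM in MEFs, and was not called. Mmp10 reached 6 fragments at most.

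The gelatinases cut denatured and basement membrane collagens. Mmp2, gelatinase A, had 1230 and 864 CPM in adipose, 1290 and 1410 CPM in muscle and 1150 and 1180 CPM in pancreas FAP+ cells, against 279 and 185 CPM in MEFs. Its 6 FAP+ values lay above both MEF values. In read CPM, which carries no TMM factor, adipose stood below the other tissues. It was 644 and 981 in adipose, 1890 and 2180 in muscle and 1740 and 1980 in pancreas, against 466 and 307 in MEFs. Muscle was called higher than adipose in the fit of recovered reads, which used TMM factors (log2 fold change 1.07, edgeR adjusted p = 0.0499). Mmp9, gelatinase B, had 0.839 and 0.892 CPM in adipose, 0.702 and 0.472 CPM in muscle and 0.208 and 0.260 CPM in pancreas FAP+ cells, against 1.68 and 2.52 CPM in MEFs. Here the order was reversed, with each FAP+ library below both MEF libraries. Mmp2 was called higher in the 3 tissues, by log2 fold changes of 2.17 in adipose, 2.54 in muscle and 2.33 in pancreas, of which the adipose call was lost in RPKM (0.82, limma adjusted p = 0.116). Mmp9 was called lower in muscle (-1.85) and pancreas (-3.13), and in adipose its -1.27 missed the threshold (edgeR adjusted p = 0.0545). The muscle call of Mmp9 was lost without muscle library 1 or 2 or MEF library 2 (edgeR adjusted p = 0.0717, 0.147 and 0.116). In FPKM, Mmp2 stood at 237 to 538 and Mmp9 at 0.0734 to 0.314 over the FAP+ libraries.

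Of the membrane-bound MMPs, Mmp14 cuts collagen at the cell surface and activates the Mmp2 precursor in a complex with Timp2. Mmp14 had 1010 and 492 CPM in adipose, 372 and 342 CPM in muscle and 401 and 432 CPM in pancreas FAP+ cells, against 80.3 and 188 CPM in MEFs. Mmp23, which is anchored by its propeptide, had 766 and 275 CPM in adipose, 163 and 87.5 CPM in muscle and 192 and 168 CPM in pancreas FAP+ cells, against 44.6 and 36.4 CPM in MEFs. Both genes stood above the MEF range in all 6 FAP+ libraries, with adipose library 1 the highest of all. In recovered reads that library was not the highest for Mmp14, at a read CPM of 445, where the other FAP+ libraries had 475 to 651. Read CPM carries no TMM factor, so this change of order mixes scaling and counts. Mmp16 showed the opposite order, at 0.686 and 1.10 CPM in adipose, 2.23 and 2.70 CPM in muscle and 2.55 and 4.83 CPM in pancreas FAP+ cells, against 8.79 and 8.62 CPM in MEFs. Mmp16 was lower than in MEFs by a log2 fold change of -3.25 ± 0.45 in adipose (SE, edgeR adjusted p = 0.000984), -1.81 ± 0.41 in muscle (adjusted p = 0.01) and -1.24 ± 0.4 in pancreas (adjusted p = 0.0406).

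The less abundant membrane-bound MMPs differed between tissues in whether they were called. Mmp17, held by a lipid anchor, had 8.46 and 4.34 CPM in adipose, 1.47 and 1.5 CPM in muscle and 4.48 and 5.14 CPM in pancreas FAP+ cells, against 2.16 and 1.00 CPM in MEFs. Mmp15 had 7.17 and 2.72 CPM in adipose, 1.15 and 1.59 CPM in muscle and 4.64 and 1.40 CPM in pancreas FAP+ cells, against 0.420 and 0.395 CPM in MEFs. Both were called higher in adipose and pancreas but not in muscle, where Mmp17 overlapped MEFs and Mmp15 did not. Mmp24 stood at 4.88 to 11.1 CPM over all 8 libraries and was not called. Its level is uncertain, since recovered reads gave a read CPM of at most 0.421 and the gene overlaps BC029722 in the annotation.

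Several calls of these genes lay near the threshold and were lost with fewer libraries, also where the library left out belonged to neither group and the fold hardly moved. The adipose calls of Mmp14 and Mmp15 did not hold under every alternative. For Mmp14 the muscle call was lost without either muscle library, either pancreas library or MEF library 1 (log2 fold change 0.89 to 1.46, edgeR adjusted p = 0.0878 to 0.236), and with RLE factors, no filter, the replicate block and each limma setting. The pancreas call of Mmp14 was lost on log2(FPKM + 1) and log2(FPKM + 0.1) and without either muscle library, either pancreas library or MEF library 1 (1.13 to 1.67, adjusted p = 0.0616 to 0.158). For Mmp23 the muscle call was lost without any 1 of the muscle, pancreas or MEF libraries (1.1 to 2.0, edgeR adjusted p = 0.0553 to 0.214) and the pancreas call without either pancreas or either MEF library (2.02 to 2.28, adjusted p = 0.0521 to 0.0887). For Mmp16 the muscle call was lost without either muscle library or MEF library 1 (-1.97 to -1.69, edgeR adjusted p = 0.0522 to 0.0803) and the pancreas call without either muscle library, pancreas library 1 or either MEF library (-1.24 to -0.85, adjusted p = 0.073 to 0.225). The Mmp17 call was lost in adipose without MEF library 2 (1.56, edgeR adjusted p = 0.0698) and in pancreas without either muscle library, either pancreas library or MEF library 2 (1.17 to 1.71, adjusted p = 0.062 to 0.151). That of Mmp15 in pancreas was lost without pancreas library 1 (1.77, edgeR adjusted p = 0.122) or either MEF library (2.9 and 2.84, adjusted p = 0.0908 and 0.0867).

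**Figure D3:**
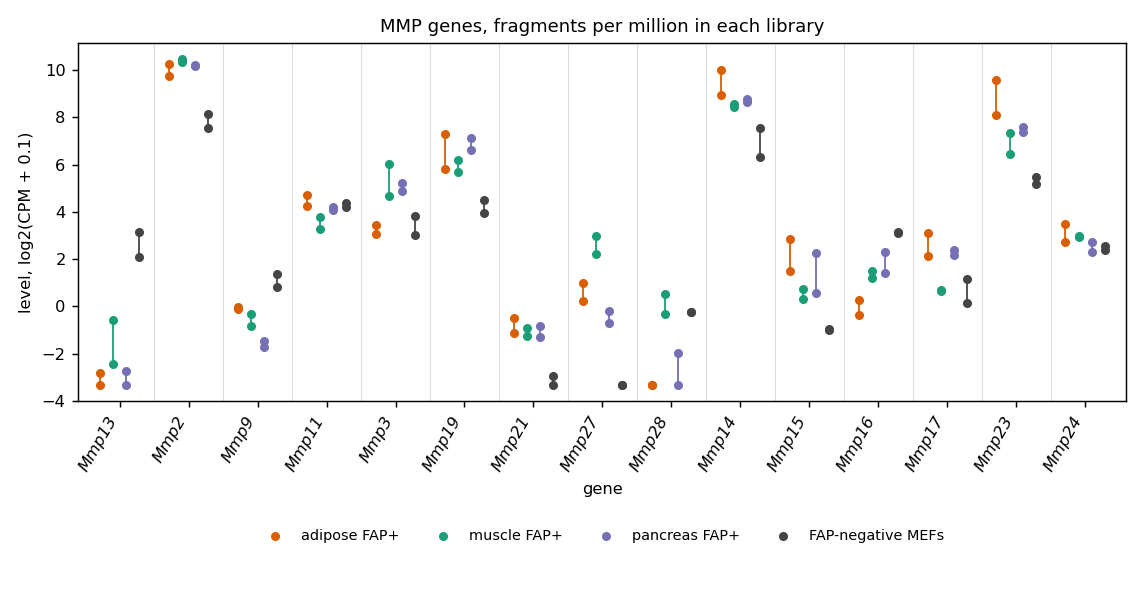
Level of the 15 tested MMP genes as log2(CPM + 0.1), 1 point per library and a line joining the 2 libraries of a group, so that 0 fragments fall at the bottom. Mmp2, Mmp14 and Mmp23 lie highest in adipose, muscle and pancreas FAP+ cells and are lower in MEFs, whereas Mmp9, Mmp13 and Mmp16 are higher in MEFs.

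Among the other secreted MMPs, Mmp19 stood at 55.4 and 156 CPM in adipose, 51.2 and 73.1 CPM in muscle and 98.6 and 138 CPM in pancreas FAP+ cells, against 22.5 and 15.2 CPM in MEFs. Mmp27 had 1.07 and 1.87 CPM in adipose, 7.78 and 4.59 CPM in muscle and 0.521 and 0.779 CPM in pancreas FAP+ cells, and was at 0 in both MEF libraries. Muscle was the highest group for Mmp27 and pancreas the lowest of the tissues, with no overlap between groups. Against a floor of 3 fragments per library in MEFs, Mmp27 was at least 16.2-fold higher in adipose, 68.4-fold in muscle and 7.18-fold in pancreas. Its adipose and pancreas calls against MEFs did not hold under every alternative. Mmp28, epilysin, had 0 and 0 CPM in adipose, 0.702 and 1.33 CPM in muscle and 0.156 and 0 CPM in pancreas FAP+ cells, against 0.750 and 0.759 CPM in MEFs. It was thus found in muscle FAP+ cells and MEFs and was at least 4.3-fold lower in adipose than in MEFs. In pancreas, with 3 fragments, the MEF level was 9.66 times as high (95% counting interval 3.12 to 48.4), a call lost without either muscle library, pancreas library 2 or either MEF library (edgeR adjusted p = 0.085 to 0.154).

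Mmp21, known for its part in left-right patterning of the embryo, had 0.610 and 0.365 CPM in adipose, 0.319 and 0.429 CPM in muscle and 0.469 and 0.312 CPM in pancreas FAP+ cells, against 0 and 0.0304 CPM in MEFs. MEFs had 1 fragment, and the level in adipose was 29.8 times as high (95% counting interval 4.67 to 1250). It was 25.5 times as high in muscle (3.92 to 1070) and 25.9 times in pancreas (3.98 to 1090). Each FAP+ library stood above both MEF libraries, but only 15 to 17 fragments per tissue carried the difference. The muscle call of Mmp21 was lost without muscle library 2 or MEF library 1 (edgeR adjusted p = 0.0764 and 0.0702), the pancreas call without pancreas library 1 or MEF library 1 (0.0662 and 0.0693), and the adipose call in recovered reads (0.0571). The muscle call of Mmp19 was lost without either muscle or either MEF library (0.0672 to 0.149), and its adipose and pancreas calls without MEF library 2 (0.0531 and 0.0508). Mmp7, Mmp12, Mmp20 and, of the membrane-bound group, Mmp25 had at most 8 fragments in any library and were not tested.

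Of the proteoglycanases of the ADAMTS family 5 of 7 tested genes were higher in each tissue, where 26.9% of all tested genes were higher in adipose, 23.7% in muscle and 23.1% in pancreas. Adamts5, the main aggrecan-cutting enzyme of mouse cartilage, had 322 and 601 CPM in adipose, 675 and 600 CPM in muscle and 281 and 414 CPM in pancreas FAP+ cells, against 27.7 and 30.6 CPM in MEFs. Adamts4, another aggrecanase, had 64.0 and 487 CPM in adipose, 65.4 and 107 CPM in muscle and 22.0 and 34.9 CPM in pancreas FAP+ cells, against 3.93 and 4.01 CPM in MEFs. The 2 adipose libraries of Adamts4 were further apart than any pair of the other tissues. Adamts1, which cuts versican and aggrecan, had 233 and 491 CPM in adipose, 219 and 239 CPM in muscle and 187 and 179 CPM in pancreas FAP+ cells, against 55.6 and 37.9 CPM in MEFs. Adamts15 had 72.9 and 61.7 CPM in adipose, 38.4 and 36.5 CPM in muscle and 127 and 103 CPM in pancreas FAP+ cells, against 0.630 and 0.243 CPM in MEFs. Every FAP+ library lay above both MEF libraries for these 4 genes. Adamts8, its neighbour on chromosome 9, had 6.40 and 8.68 CPM in adipose, 2.81 and 1.76 CPM in muscle and 4.53 and 6.29 CPM in pancreas FAP+ cells, against 0.180 and 0.121 CPM in MEFs.

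The fitted log2 fold change of Adamts15 from MEFs was 7.25 ± 0.47 in adipose (SE, edgeR adjusted p = 4.52e-05), 6.4 ± 0.46 in muscle (adjusted p = 7.6e-05) and 8.02 ± 0.48 in pancreas (adjusted p = 5.06e-05). Adamts5 differed by 4.45 ± 0.43 in muscle (edgeR adjusted p = 0.000229) and 3.58 ± 0.41 in pancreas (adjusted p = 0.000499), and Adamts8 by 5.6 ± 0.5 in adipose (adjusted p = 0.000148). For Adamts4 the value was 6.12 ± 0.96 in adipose (edgeR adjusted p = 0.00176) and 4.44 ± 0.89 in muscle (adjusted p = 0.00576). The calls of Adamts5 and Adamts15 held in the 3 tissues under every alternative and without any 1 library. The Adamts4 call was lost in muscle without either MEF library (edgeR adjusted p = 0.0582 and 0.0515) and in pancreas without any 1 of the muscle, pancreas or MEF libraries (0.0529 to 0.148), and that of Adamts1 in pancreas without MEF library 2 (0.0549). The Adamts1 calls in adipose and muscle and the Adamts8 call in muscle did not hold under every alternative. Adamts9 stood at 1.37 to 3.61 CPM over all libraries and was not called. Adamts20, at 0.534 and 0.892 CPM in adipose FAP+ cells against 2.13 and 2.43 CPM in MEFs, was called lower in adipose, a call lost without adipose library 1, pancreas library 2 or either MEF library (edgeR adjusted p = 0.0513 to 0.106). In recovered reads its log2 difference was 0.29 and not called.

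The procollagen N-proteinases remove the amino-terminal propeptide of fibrillar procollagens. Adamts2, the main one for type I procollagen, had 822 and 1030 CPM in adipose, 711 and 632 CPM in muscle and 444 and 508 CPM in pancreas FAP+ cells, against 14.0 and 10.9 CPM in MEFs. Adamts14 had 53.5 and 43.6 CPM in adipose, 29.9 and 34.9 CPM in muscle and 57.2 and 38.9 CPM in pancreas FAP+ cells, against 7.47 and 5.40 CPM in MEFs. The FAP+ and MEF libraries did not overlap in either gene. The Adamts14 call in adipose did not hold under every alternative. Adamts2 was higher by a log2 fold change of 6.21 ± 0.37 in adipose (SE, edgeR adjusted p = 3.66e-05), 5.75 ± 0.36 in muscle (adjusted p = 5.6e-05) and 5.26 ± 0.35 in pancreas (adjusted p = 6.24e-05), calls that held under every alternative and without any 1 library. Adamts3, which acts mainly on procollagen II and on the lymphatic growth factor Vegfc, had 2.09 to 5.95 CPM over the 8 libraries and was not called. Per length, Adamts2 stood at 129 to 303 FPKM in FAP+ libraries and Adamts14 at 6.05 to 13.2 FPKM.

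Of the other ADAMTS genes 7 were tested, and 5 were higher in adipose, 4 in muscle and 6 in pancreas, beside 26.9, 23.7 and 23.1% of all tested genes. Adamts10, a protease tied to fibrillin microfibrils, had 220 and 199 CPM in adipose, 214 and 254 CPM in muscle and 394 and 362 CPM in pancreas FAP+ cells, against 45.2 and 42.6 CPM in MEFs. Its read CPM, without TMM factors, was 30.4 and 68.2 in adipose FAP+ cells, against 24.3 and 23.0 in MEFs. The adipose call of Adamts10 did not hold under every alternative. Adamts16 had 29.8 and 35.0 CPM in adipose, 32.1 and 28.7 CPM in muscle and 42.6 and 42.1 CPM in pancreas FAP+ cells, against 0.45 and 0.182 CPM in MEFs. Its FAP+ libraries lay close together and far above MEFs. Adamts16 was higher by a log2 fold change of 6.65 ± 0.43 in adipose (SE, edgeR adjusted p = 4.35e-05), 6.56 ± 0.42 in muscle (adjusted p = 6.16e-05) and 7.04 ± 0.43 in pancreas (adjusted p = 5.07e-05), which also held under every alternative and without any 1 library. Adamts19 had 3.66 and 5.68 CPM in adipose, 1.15 and 1.03 CPM in muscle and 5.0 and 5.82 CPM in pancreas FAP+ cells, against 0.0600 and 0 CPM in MEFs. MEFs had 2 fragments, and the level in adipose was 165 times as high (95% counting interval 45 to 1370). It was 35.7 times as high in muscle (9.29 to 304) and 179 times in pancreas (49 to 1490). The muscle call of Adamts19 did not hold under every alternative.

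Adamts7 and Adamts12 are a pair that cut cartilage oligomeric matrix protein. Adamts7 had 9.30 and 7.02 CPM in adipose, 3.64 and 4.93 CPM in muscle and 13.4 and 13.2 CPM in pancreas FAP+ cells, against 3.12 and 2.22 CPM in MEFs. Adamts12 had 8.92 and 27.5 CPM in adipose, 8.55 and 12.9 CPM in muscle and 9.75 and 17.5 CPM in pancreas FAP+ cells, against 2.22 and 1.64 CPM in MEFs. Both stood above MEFs in every FAP+ library, but Adamts7 was not called in muscle. The Adamts12 call was lost in muscle without muscle library 2 or either MEF library (edgeR adjusted p = 0.0641 to 0.081) and in pancreas without pancreas library 2 or MEF library 2 (0.0501 and 0.0593). The Adamts7 call in adipose was lost in recovered reads (0.0553). The Adamts12 call in adipose did not hold under every alternative. Adamts17 was called higher in pancreas, at 0.782 and 1.35 CPM in pancreas FAP+ cells against 0.240 and 0.0304 CPM in MEFs. That call was lost without either muscle library, either pancreas library or MEF library 2 (edgeR adjusted p = 0.0615 to 0.174), and in muscle Adamts17 was called in recovered reads (log2 fold change 2.62, adjusted p = 0.0354) and without adipose library 1 (2.42, adjusted p = 0.049). Adamts6 had 0.229 to 1.11 CPM and was not called, and Adamts13, the protease of von Willebrand factor, and Adamts18 had at most 11 fragments and were not tested.

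**Figure D4:**
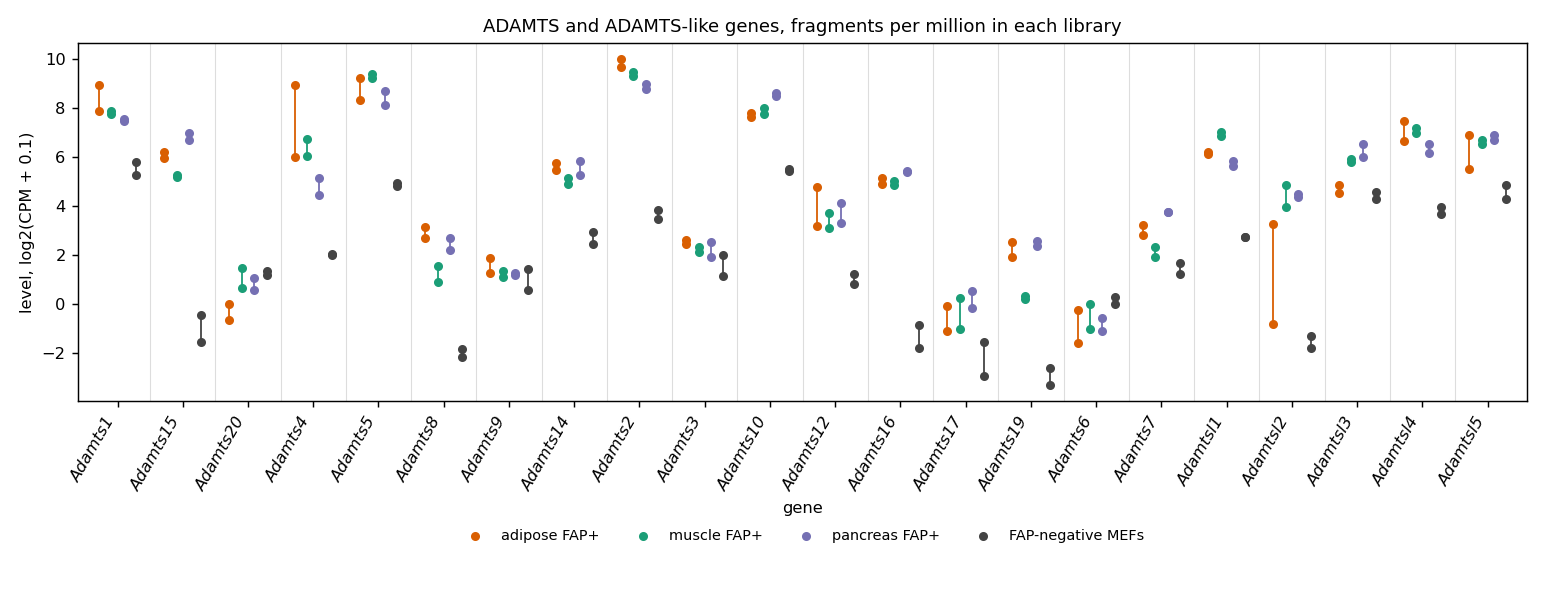
Level of the 22 tested ADAMTS and ADAMTS-like genes as log2(CPM + 0.1), 1 point per library and a line joining the 2 libraries of a group. The gap between the FAP+ groups and MEFs is among the widest for Adamts2, Adamts15, Adamts16 and, in muscle and pancreas, Adamtsl2.

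The ADAMTS-like proteins bind fibrillin microfibrils and other matrix. Adamtsl4, whose human counterpart is mutated in inherited lens displacement, had 179 and 102 CPM in adipose, 146 and 127 CPM in muscle and 93.1 and 72.6 CPM in pancreas FAP+ cells, against 15.5 and 12.6 CPM in MEFs. Adamtsl1 had 69.3 and 73.7 CPM in adipose, 116 and 131 CPM in muscle and 49.1 and 57.9 CPM in pancreas FAP+ cells, against 6.48 and 6.50 CPM in MEFs. Both genes were called higher in the 3 tissues under every alternative and without any 1 library. Adamtsl5 had 118 and 45.4 CPM in adipose, 105 and 91.3 CPM in muscle and 120 and 103 CPM in pancreas FAP+ cells, against 19.6 and 29.1 CPM in MEFs. Adamtsl2, mutated in human geleophysic dysplasia, had 0.457 and 9.61 CPM in adipose, 15.4 and 28.7 CPM in muscle and 20.6 and 22.4 CPM in pancreas FAP+ cells, against 0.300 and 0.182 CPM in MEFs. The adipose libraries of Adamtsl2 split, 1 of them close to MEFs and 1 close to muscle.

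Adamtsl2 was higher than in MEFs by a log2 fold change of 6.48 ± 1.23 in muscle (SE, edgeR adjusted p = 0.00449) and 6.45 ± 1.23 in pancreas (adjusted p = 0.00471). In adipose its call was lost without adipose library 2 (log2 fold change 0.9, edgeR adjusted p = 0.344), MEF library 1 (0.0922) or MEF library 2 (0.104). The Adamtsl5 call was lost in adipose, muscle and pancreas without MEF library 1 (edgeR adjusted p = 0.111, 0.0823 and 0.0662) and in muscle without muscle library 1 (0.0557). Adamtsl3 had 22.8 and 28.7 CPM in adipose, 54.9 and 59.7 CPM in muscle and 64.6 and 91.6 CPM in pancreas FAP+ cells, against 23.4 and 19.3 CPM in MEFs. It was called higher in muscle (log2 fold change 1.42) and pancreas (1.87), while the adipose libraries overlapped those of MEFs. Neither call of Adamtsl3 held under every alternative.

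The TIMPs changed in opposite directions. Timp2, the inhibitor that also bridges Mmp14 and the Mmp2 precursor, had 3380 and 4050 CPM in adipose, 3390 and 2840 CPM in muscle and 1970 and 2360 CPM in pancreas FAP+ cells, against 614 and 823 CPM in MEFs. Timp1, a weak inhibitor of the membrane-type MMPs, had 664 and 172 CPM in adipose, 54.1 and 33.7 CPM in muscle and 37.8 and 38.2 CPM in pancreas FAP+ cells, against 534 and 740 CPM in MEFs. For Timp2 all FAP+ libraries lay above MEFs, while for Timp1 muscle and pancreas lay below MEFs and adipose overlapped them in CPM. Timp2 was called higher in the 3 tissues, by log2 fold changes of 2.37 in adipose, 2.12 in muscle and 1.59 in pancreas. The pancreas call was lost without pancreas library 2 or MEF library 1 (log2 fold change 1.44 and 1.38). The adipose call of Timp2 did not hold under every alternative either. Timp1 was lower by a log2 fold change of -3.86 ± 0.65 in muscle (SE, edgeR adjusted p = 0.00259) and -4.07 ± 0.65 in pancreas (adjusted p = 0.00223), which held under every alternative and without any 1 library. In adipose the Timp1 difference was -0.61 ± 0.58 (edgeR adjusted p = 0.403), and -1.18 in recovered reads (adjusted p = 0.0391). Without adipose library 1 it was -1.89 (edgeR adjusted p = 0.00422), and without adipose library 2 it was 0.05. In FPKM both adipose libraries, at 219 and 107, lay below MEFs, at 550 and 707, and limma on log2(FPKM + 1) called Timp1 lower in adipose (-2.02, adjusted p = 0.00966). That setting has no TMM factors, and 21.7% of its calls over all genes in adipose were higher than in MEFs. In the fit of the report the share was 53.6%.

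Timp2 made up 67.9 and 85.8% of the summed TIMP FPKM in adipose, 87.5 and 85.7% in muscle and 87.0 and 87.8% in pancreas FAP+ cells, against 33.1% in both MEF libraries. Timp1 made up 27.1 and 7.45% in adipose, 2.84 and 2.07% in muscle and 3.41 and 2.89% in pancreas FAP+ cells, against 58.8 and 60.7% in MEFs. The summed TIMP level in FPKM overlapped between the groups, at 807 and 1440 FPKM in adipose, 1190 and 1060 in muscle and 747 and 987 in pancreas FAP+ cells, against 936 and 1170 FPKM in MEFs. FPKM carries no TMM factor, so this overlap holds on that scale only. In CPM, Timp2 stood at 1970 to 4050 in FAP+ libraries, against 614 and 823 in MEFs, while Timp1 was lower in muscle and pancreas. Timp3, which stays bound to the matrix and also inhibits Adamts4 and Adamts5, had 214 and 349 CPM in adipose, 476 and 500 CPM in muscle and 277 and 323 CPM in pancreas FAP+ cells, against 195 and 197 CPM in MEFs. It was called higher in muscle (log2 fold change 1.32), a call lost without either muscle or either MEF library (edgeR adjusted p = 0.063 to 0.0838). In recovered reads Timp3 was also called higher in adipose (1.07, edgeR adjusted p = 0.004) and pancreas (0.63, adjusted p = 0.0405).

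Timp4 is expressed in heart and adipose tissue among others. It had 32.7 and 18.5 CPM in adipose, 2.49 and 7.16 CPM in muscle and 0.678 and 0.260 CPM in pancreas FAP+ cells, against 0.0300 and 0 CPM in MEFs. The 4 groups did not overlap. MEFs had 1 fragment of Timp4, and the level in adipose was 1550 times as high (95% counting interval 278 to 61400). It was 350 times as high in muscle (62.2 to 13900) and 31.0 times in pancreas (4.9 to 1290), the last a call lost without pancreas library 1 or either MEF library (edgeR adjusted p = 0.0614 to 0.122). Beside this, 4 adipocyte markers summed to 11.3 and 9.41 CPM in adipose, 1.40 and 0.172 CPM in muscle and 0.208 and 0.416 CPM in pancreas FAP+ cells, against 0 and 0.0304 CPM in MEFs, with Adipoq, the adipocyte hormone adiponectin, at 3.51 and 1.95 CPM in adipose. Their part in the Timp4 difference was not tested. Timp1, Timp3 and Timp4 lie within the synapsin genes Syn1, Syn3 and Syn2 in the annotation, and those had 0 to 6.5 CPM.

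**Figure D5:**
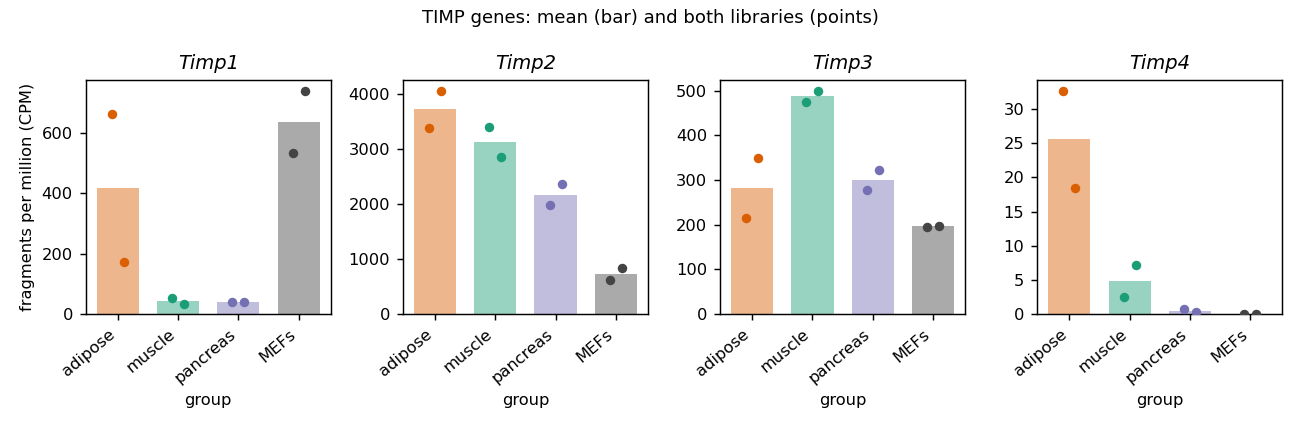
Level of the 4 TIMP genes in CPM, with bars for the mean of the 2 libraries of a group and points for the libraries, each panel on its own axis from 0. Timp2 is higher in adipose, muscle and pancreas FAP+ cells than in MEFs, Timp1 is lower in muscle and pancreas than in MEFs, and Timp4 is highest in adipose.

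Between tissues few members were called. Muscle against adipose gave 2 higher and 2 lower of 41 (9.76% called), where 6.12% of all tested genes were called, 2.34% higher and 3.78% lower. Pancreas against adipose also gave 2 and 2, where 9.05% of all tested genes were called, 3.32% higher and 5.73% lower. Pancreas against muscle gave 1 higher and 3 lower, where 3.67% were called, 1.54% higher and 2.14% lower. The median member had a log2 fold change of -0.31 for muscle against adipose, -0.28 for pancreas against adipose and -0.01 for pancreas against muscle, beside -0.01, 0.00 and 0.00 over all tested genes. The share is near the background for pancreas against adipose, and each share rests on 4 genes. All 12 calls were lost without at least 1 library, and each pair of comparisons shares 1 group.

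Among the TIMPs, Timp1 and Timp4 were called between tissues. Timp1 was lower than in adipose by a log2 fold change of -3.25 ± 0.63 in muscle (SE, edgeR adjusted p = 0.0274) and -3.46 ± 0.63 in pancreas (adjusted p = 0.018), with both adipose libraries, at 664 and 172 CPM, above the other 4. The first call was lost without either muscle, pancreas or MEF library (edgeR adjusted p = 0.0621 to 0.222) and the second without either pancreas library (0.17 and 0.155). Without adipose library 1 the differences were -1.99 in muscle and -2.19 in pancreas (edgeR adjusted p = 0.0129 and 0.00624), and without adipose library 2 they were -3.92 and -4.12 (adjusted p = 0.000541 and 0.000392). Timp4 was lower in pancreas than in adipose by -5.75 ± 0.75 (edgeR adjusted p = 0.00581), lost without either pancreas library (0.0719 and 0.0801), and lower in pancreas than in muscle by -3.36 ± 0.71 (adjusted p = 0.047), lost without any 1 of the muscle, pancreas or MEF libraries (0.0736 to 0.316). Pancreas lay below muscle and adipose in each Timp4 library. Muscle against adipose was not called for Timp4 (-2.39 ± 0.61, edgeR adjusted p = 0.0623).

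Muscle FAP+ cells had more Mmp3 than adipose FAP+ cells, with a log2 fold change of 2.26 ± 0.5 (SE, edgeR adjusted p = 0.0425), and at least 5.82-fold more Mmp28, which had 0 fragments in adipose. They had less Adamts8, by -1.73 ± 0.4 (edgeR adjusted p = 0.0473). The Mmp3 and Mmp28 calls were lost without any 1 library other than adipose library 2 (edgeR adjusted p = 0.0586 to 0.276 and 0.056 to 0.231), and that of Adamts8 without any 1 of the muscle, pancreas or MEF libraries (0.0925 to 0.315). The Adamts8 call was also lost in recovered reads.

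Pancreas FAP+ cells had more Adamtsl3 than adipose FAP+ cells, with a log2 fold change of 1.6 ± 0.28 (SE, edgeR adjusted p = 0.0149), and more Mmp16 (2.01, adjusted p = 0.0318). They had more Adamts7 than muscle FAP+ cells (1.63 ± 0.32, edgeR adjusted p = 0.0386), less Adamtsl1 (-1.21 ± 0.23, adjusted p = 0.0347) and less Mmp27 (-3.24, adjusted p = 0.0293). The pancreas and the other tissue did not overlap in any of these 5 genes. The Adamtsl3 call was lost without either pancreas library (edgeR adjusted p = 0.0759 and 0.131), and the Mmp16 call without any 1 library other than adipose library 2 (0.0576 to 0.212). Those of Adamts7 and Adamtsl1 were lost without any 1 of the muscle, pancreas or MEF libraries (edgeR adjusted p = 0.0682 to 0.309 and 0.0824 to 0.329), and that of Mmp27 without either muscle or pancreas library or MEF library 1 (0.0518 to 0.285).

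Other genes of the pathway were counted in 3 lists. Of 13 tested genes of activation, uptake and cofactors, 8 were higher and 0 lower in adipose, 8 higher and 2 lower in muscle and 7 higher and 2 lower in pancreas than in MEFs. Over all tested genes 50.1% were called in adipose, 43.8% in muscle and 42.5% in pancreas, and the 3 lists are described beside these shares without a test. Pcsk6, a convertase that processes precursors of secreted proteins, had 527 and 413 CPM in adipose, 737 and 842 CPM in muscle and 519 and 553 CPM in pancreas FAP+ cells, against 14.0 and 14.4 CPM in MEFs. Plat, tissue plasminogen activator, had 268 and 374 CPM in adipose, 201 and 147 CPM in muscle and 215 and 240 CPM in pancreas FAP+ cells, against 49.8 and 31.7 CPM in MEFs. Both were called higher in the 3 tissues, with no overlap. Pcolce2, an enhancer of procollagen C-proteinase, stood at 552 to 1200 CPM in FAP+ libraries, against 77.2 and 93.3 CPM in MEFs, and was called in the 3 tissues, while Pcolce was called in muscle.

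Of 12 tested other metalloproteinases, 5 were higher and 3 lower in adipose, 4 higher and 5 lower in muscle and 6 higher and 4 lower in pancreas, so that calls in both directions were present in each tissue. Bmp1, the procollagen C-proteinase, had 954 and 880 CPM in adipose, 1060 and 1150 CPM in muscle and 826 and 786 CPM in pancreas FAP+ cells, against 158 and 106 CPM in MEFs. Adam15 and Adam33, membrane proteases of the related ADAM family, were also higher in the 3 tissues, and Adam10, a sheddase of many surface proteins, was lower, at 15.9 to 28.3 CPM in FAP+ libraries against 58.0 and 38.9 CPM in MEFs. Of 14 substrate genes, 9 were higher and 4 lower in adipose, 8 higher and 3 lower in muscle and 5 higher and 4 lower in pancreas. Col3a1, fibrillar collagen III, stood at 4330 to 8800 CPM in FAP+ libraries, against 893 and 400 CPM in MEFs, and was called in the 3 tissues. Col1a2 was called higher in adipose and muscle, and Col1a1 and Fn1 in adipose, with Col1a1 at 14800 and 1770 CPM in adipose FAP+ cells against 1140 and 975 CPM in MEFs.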

How the data were processed

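RNA from 8 mouse libraries had been amplified and sequenced. The authors deposited 3 tables, per the file headers: bias-adjusted estimated counts (fragments per gene), the matching FPKM values, and RPKM values. The genome build mm9 and the tools TopHat2, Bowtie2, edgeR and HTSeq are listed, with no role, per the submitters' processing notes; the program behind the adjustment and any use of strand are not given in the sources used here. Of the columns of each file, 8 were matched to samples by name and 6 were not used.

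The design had assumed counts. These estimated counts were therefore rounded, then fitted in edgeR 4.0.16 (R 4.3.3): TMM factors, filterByExpr, all 8 libraries in 1 quasi-likelihood fit with 4 residual degrees of freedom, Benjamini-Hochberg adjustment over 14847 genes within each of 6 comparisons. SE was derived from the F statistic. Folds against 0 fragments were bounded at 3 fragments per library, and 1 to 3 fragments gave exact 95% counting intervals, which cover counting error only. The fit was tested on simulated data.

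Whole reads, 9497241 to 16807797 per library, were recovered from the steps of the deposited RPKM values for 21673 genes, with 936 at 0 in every library. Of the genes above 0 in all 8 libraries 100% gave whole reads within 0.01; for the 2735 genes above 0 in 1 to 3 libraries such a fit is easily met, so their reads are the smallest numbers possible. Testing reads was an alternative chosen after seeing the data. The other alternatives were RLE and upper quartile factors, DESeq2 1.42.0, other filters, fits of 2 groups, the replicate block, limma 3.58.1 on log2(FPKM + 1), log2(FPKM + 0.1) and log2(RPKM + 1), and each library left out.

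Values in every library were given for called members, up to 5 of each role with the highest FPKM, and all TIMPs; folds with errors for up to 6 called members per direction with at least 5 CPM in the higher group, and other called members mostly by their fold alone. Of other pathway genes up to 4 called ones per list were named. The members and lists were chosen with earlier results of these data known. Promoters are RefSeq's (GRCm38.p6).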

Additional observations from a re-analysis of the deposited data

How the results depend on the processing

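Counts of called members are given as higher and lower. Leaving out each library in turn gave 23 to 27 and 3 to 4 in adipose against MEFs (26 and 4 with all), 17 to 28 and 2 to 5 in muscle (26 and 4), 19 to 30 and 3 to 5 in pancreas (29 and 5), 0 to 9 and 0 to 11 in muscle against adipose (2 and 2), 0 to 4 and 0 to 8 in pancreas against adipose (2 and 2), and 0 to 4 and 0 to 4 in pancreas against muscle (1 and 3). The fewest higher members in each tissue against MEFs came without a MEF library, and the most in either direction against adipose without adipose library 2. Of the calls against MEFs, 14 of 30 in adipose, 15 of 30 in muscle and 16 of 34 in pancreas held under every alternative that tested them and without any 1 library; of the 12 between tissues 0 did. Against MEFs, limma on log2(FPKM + 1) gave 17 and 7 in adipose, 15 higher in muscle and 16 higher in pancreas; log2(FPKM + 0.1) gave 7 lower in adipose and 17 higher in pancreas; the filter at 1 FPKM gave 16 higher in muscle and 19 and 3 in pancreas; and RPKM gave 7 lower in adipose. Recovered reads gave 27 and 4 in adipose, 29 and 4 in muscle and 30 and 4 in pancreas. A filter at 5 CPM left 2 lower in adipose and 3 in pancreas, and no filter 3 lower in pancreas. For muscle against adipose DESeq2 gave 5 and 7, fits of the 2 groups 0 and 0, recovered reads 7 and 4, RPKM 4 and 4, log2(FPKM + 1) 0 higher, log2(FPKM + 0.1) 0 and 1, and upper quartile factors, no filter and the 1 FPKM filter 1 lower each. For pancreas against adipose DESeq2 gave 4 and 6, fits of the 2 groups 0 and 1, recovered reads 7 and 6, RPKM 8 and 4, log2(FPKM + 1) and log2(FPKM + 0.1) 0 higher, and the 1 FPKM filter 6 higher. For pancreas against muscle DESeq2 gave 4 higher, fits of the 2 groups 6 and 8, recovered reads 3 higher, RPKM 2 higher, upper quartile factors 2 higher, log2(FPKM + 1) 1 lower, log2(FPKM + 0.1) 0 and 0, and the 1 FPKM filter 2 and 1. The cause was not tested. Fits of 2 groups test fewer genes with fewer libraries. Upper quartile factors shifted the median of all genes in pancreas against adipose to 0.14 and the share of higher calls over all genes to 47.1%, from 0.00 and 36.7%. The limma settings, without TMM factors, shifted more. In adipose against MEFs their share of higher calls was 21.7% on log2(FPKM + 1), 24.4% on log2(FPKM + 0.1), 19.3% with the 1 FPKM filter and 26.3% in RPKM, from 53.6%. With the 1 FPKM filter the median of all genes against MEFs was -0.93 in adipose, -0.59 in muscle and -0.47 in pancreas.

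Opposite signs of the log2 fold change in the fit of the report and an alternative were counted only where either called the member. This gave 4 cases. Adamts20 in adipose against MEFs, called lower in the fit of the report, had 0.29 in recovered reads and was not called there. The others were called only in the alternative. Adamtsl4 in muscle against adipose had 0.97 in recovered reads. Mmp11 in adipose against MEFs had -0.86 with the 1 FPKM filter and -1.02 in RPKM. Changes of sign without a call, such as that of Timp1 in adipose against MEFs when an adipose library was left out, were not counted.

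The labels do not say whether the replicate numbers pair the samples. Deviations of same-numbered libraries correlated by -0.156 to 0.347 between groups, highest between adipose and pancreas. With 1 difference per group these correlations cannot decide whether the samples were paired. With the replicate block the counts were 26 and 4, 25 and 4 and 28 and 4 against MEFs in adipose, muscle and pancreas, and 0 and 2, 2 and 3 and 1 and 1 in muscle against adipose, pancreas against adipose and pancreas against muscle.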

Other observations

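Some differences between tissues were called in recovered whole reads and with DESeq2 on the estimated fragments, but not in the fit of the report. They were picked after their values were seen. Read CPM is given without TMM factors, while the log2 fold changes come from fits that scaled the libraries. Adamts19 had a read CPM of 2.42 and 2.22 in muscle, against 9.28 and 11.6 in adipose, and was lower in muscle by a log2 fold change of -2.43 in reads (edgeR adjusted p = 0.00201) and -2.17 with DESeq2 (adjusted p = 0.00097). Pancreas had 13.4 and 13.0, and was higher than muscle by 2.34 in reads (edgeR adjusted p = 0.00287) and 2.33 with DESeq2 (adjusted p = 0.000399). Adamts15 had a read CPM of 235 and 193 in pancreas, against 64.0 and 63.2 in muscle, and was higher in pancreas by 1.58 in reads (edgeR adjusted p = 0.0192) and 1.63 with DESeq2 (adjusted p = 7.86e-05). Adamts4 had 40.8 and 65.0 in pancreas, against 56.0 and 613 in adipose, so the groups overlapped although the difference was called in reads (log2 fold change -3.01, edgeR adjusted p = 0.038).

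Adamtsl5 was called against adipose in reads but not with DESeq2. Its read CPM was 82.7 and 78.3 in muscle and 92.5 and 96.7 in pancreas, against 22.5 and 25.0 in adipose. The differences from adipose were 1.49 in muscle (edgeR adjusted p = 0.00513) and 1.56 in pancreas (adjusted p = 0.00291).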
